A study of Sus scrofa with 6 samples.

Results

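The cytosolic ribosomal protein genes described here were taken from the deposited table by name: every gene symbol built as RPL or RPS plus a number, with RPLP0, RPLP1, RPLP2 and RPSA where listed, and without the RPS6K kinases. Of the 31908 Ensembl genes in the table, 58 carried such a symbol, on 180 of the 83119 transcript rows, and 57 of them had a mean of at least 0.1 FPKM (sequenced fragments scaled by transcript length and library size) over the 6 pigs. These 57 members comprised 36 genes of the large subunit and 21 of the small subunit. The remaining gene, RPL10L, was listed at 0 in every pig. The tissue was longissimus dorsi (LD), a large muscle along the spine, from 6 castrated male Laiwu pigs, a Chinese breed known for fatty meat. The S-H group (LW63, LW70 and LW119) had high intramuscular fat (IMF) content and the S-L group (LW82, LW88 and LW90) had low IMF content. The pigs were chosen for these extremes by the study, no animal received a treatment, and every animal was represented by 1 strand-specific library from which ribosomal RNA had been removed.

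Ribosomal proteins fold around ribosomal RNA to form the large subunit, which joins amino acids, and the small subunit, which reads the messenger RNA. Their mRNAs begin with a terminal oligopyrimidine (TOP) tract, through which mTOR signalling controls their translation together, so that the proteins are made in matched amounts. In skeletal muscle the family has a tissue-specific member, RPL3L, which can take the place of RPL3 in the large subunit of mature fibres.

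The files hold FPKM and no read counts, so the depth behind each value is unknown, and the spread between the pigs sets the precision. The pigs are separate animals, so p-values weigh the group difference against the spread between animals within each group. In limma the variance of each gene is drawn towards a trend over all tested genes. The standard error of a gene need not match its own spread. Muscle fibre markers were abundant in every library: the 5 of 10 listed markers with a symbol in the table summed to 14041 to 24005 FPKM, and the groups overlapped. All 7 adipocyte markers, which include the hormones adiponectin (ADIPOQ) and leptin (LEP), had positive log2 fold changes (73.8% of tested genes). Of them, 5 passed the thresholds given below (1.35% of tested genes), while LPL (0.02) and CFD (0.26) did not. The sums of the 7 were 543 to 1357 FPKM in S-H against 389 to 474 in S-L. The 5 macrophage markers summed to 29.0 to 165.6 FPKM in S-H and 17.8 to 35.6 in S-L, with overlap, 5 of 5 had positive log2 fold changes, and SPP1 passed. No defining marker with a symbol was at 0 in every pig. The part that adipocyte and macrophage RNA plays in the ribosomal protein values was not tested, and in bulk tissue a change in the number of cells of a type cannot be told apart from a change in RNA per cell. Structural RNAs (those of RNase MRP, RNase P and the signal recognition particle) together took 46.6% of the summed FPKM in LW119 and up to 64.7% in LW82, and the summed FPKM itself was lowest in LW119 (638440) and highest in LW82 (846638).

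The ribosomal protein genes were among the most abundant mRNAs of the muscle. On the FPKM scale, which accounts for transcript length, the mean level over the 6 pigs had a median of 242 over the members against 3.80 over the 11003 tested genes. Of the 57 members, 54 were in the top 10% of tested genes by mean and 23 were among the top 100 (0.909% of tested genes). The genes were spread over 17 chromosomes, with 9 on chromosome 6 and 3 on the X chromosome.

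Within the family the mean levels spanned 66.3-fold. RPL10, a large subunit protein that takes part in the last steps of subunit maturation, was the highest member. It had 1699, 1432 and 1520 FPKM in LW63, LW70 and LW119 and 1293, 1279 and 1140 FPKM in LW82, LW88 and LW90. RPL28, also of the large subunit, was the lowest, with 17.6, 21.6 and 31.8 FPKM in the S-H pigs and 13.2, 20.8 and 21.1 FPKM in the S-L pigs. RPL10 ranked 20 among all tested genes and lay on the X chromosome (X:124926482-124929797, Sscrofa11.1 coordinates as the file gives them). In all, 48 members had a mean above 100 FPKM, 17 above 500 FPKM and 5 below 50 FPKM.

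The members with the highest means after RPL10 included, in order, RPS21 (1116 FPKM), RPLP0 (982), RPL34 (904), RPS16 (885), RPS18 (763), RPL38 (757), RPL39 (684) and RPL24 (676). RPLP0 is the scaffold of the P-stalk, the flexible arm of the large subunit that recruits elongation factors, and RPS16, RPS18 and RPS21 belong to the small subunit. From RPS21 on, neighbours in this order differed by less than the spread over the pigs. In these genes the coefficient of variation (SD over mean) was between 14.3% (RPL10) and 26.8% (RPS18). The median coefficient of variation over the 6 pigs was 23.4% for the members, 28.7% for all tested genes and 25.1% for the 1100 genes in the top 10%. It was near equal in the subunits, with a median of 23.2% in the large and 23.8% in the small subunit.

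**Figure D1:**
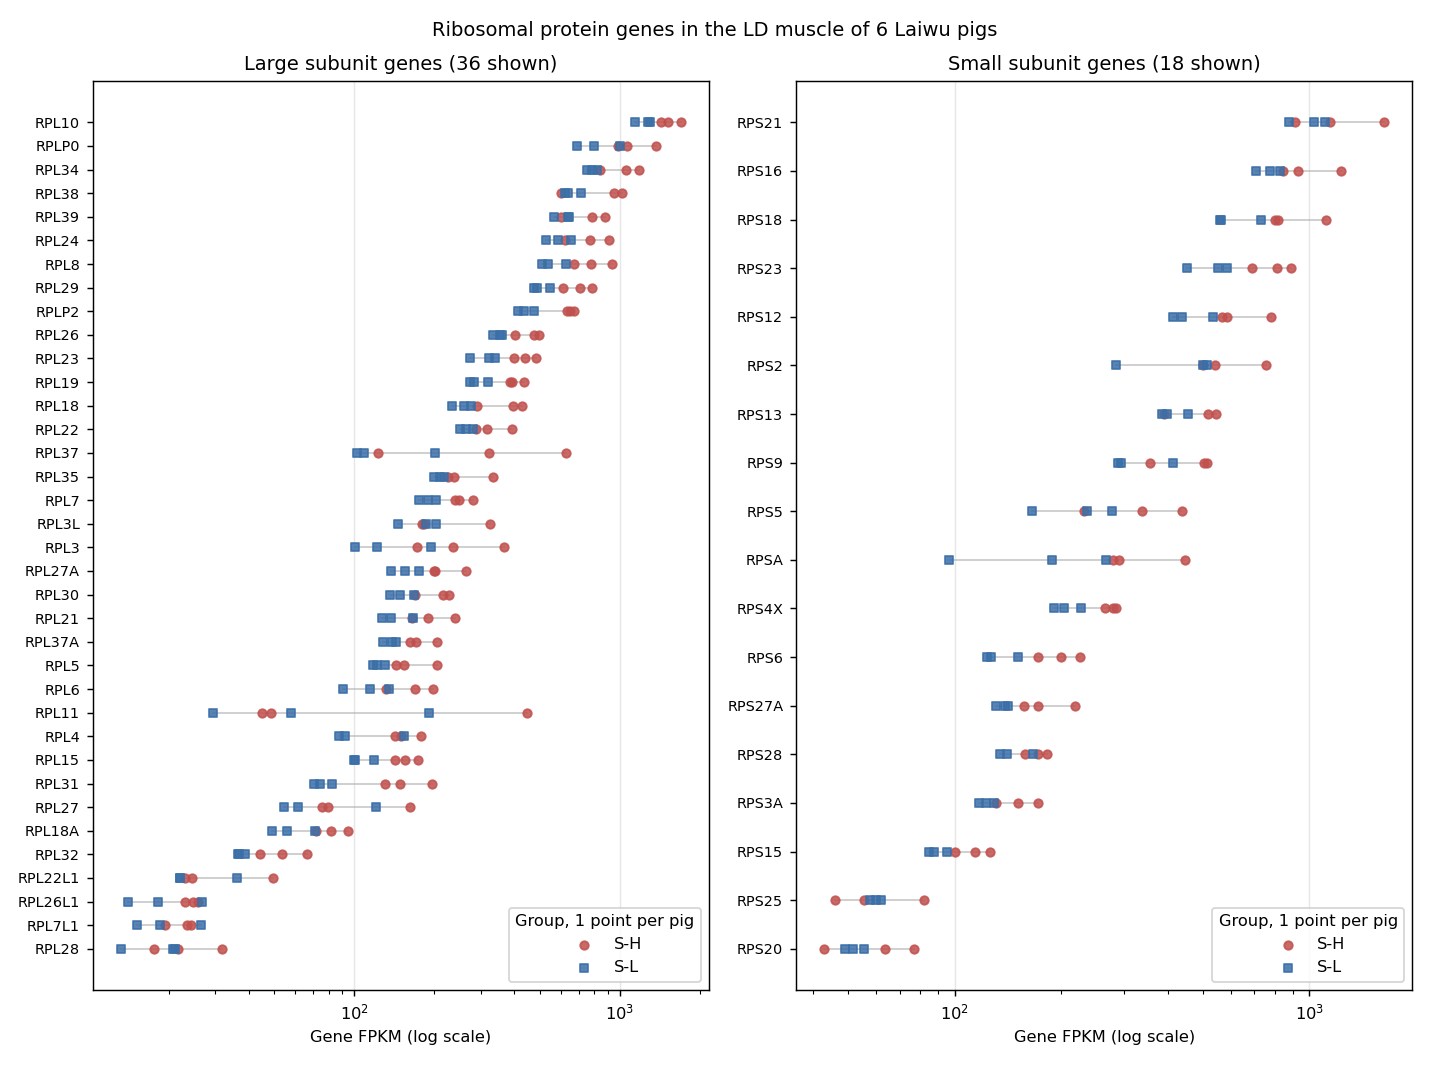
Gene FPKM (log axis) of 36 large subunit genes (left) and 18 small subunit genes (right), ordered by mean, with 1 circle per S-H pig, 1 square per S-L pig and a grey line from the lowest to the highest pig. Mean levels run from 21.0 FPKM (RPL28) to 1394 FPKM (RPL10), and RPL11 and RPL37 have the longest lines.

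The comparison of S-H with S-L asks which transcripts differ between the muscles of pigs with high and low IMF content. Of the 57 ribosomal protein genes, 56 had a positive log2 fold change (S-H minus S-L, on log2(FPKM + 0.1)), against 73.8% of all tested genes. For 33 genes the lowest S-H value exceeded the highest S-L value, 57.9% of the members against 13.1% of tested genes, and for no member was the reverse true (1.61% of tested genes). The median log2 fold change was 0.43, or 1.35-fold, with quartiles of 0.34 and 0.53, where the median of all tested genes was 0.21. Among the 1100 tested genes with the highest means, the median was 0.18 and 15% of genes did not overlap with S-H higher.

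Few single genes stood out in the limma test. Only RPL31 passed the unadjusted p below 0.01 and absolute log2 fold change of at least 1 (limma), 1 of 57 members against 1.35% of tested genes. Unadjusted p was below 0.05 for 6 members, among them RPL31, RPSA, RPL3, RPL15 and RPS6, or 10.5% of the members against 8.16% of tested genes. No member and none of the 11003 tested genes had an adjusted p below 0.05 (limma, Benjamini-Hochberg), although 898 tested genes had an unadjusted p below 0.05. The lowest adjusted p was 0.462 among the members and 0.0581 among all tested genes.

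Both subunits were shifted in the same direction by a like amount. Of all tested genes, 73.8% were positive and 13.1% did not overlap with S-H higher, and their median was 0.21. After the size factors described below, the medians were 0.23 in the large and 0.20 in the small subunit, and 0.00 over all tested genes. In the large subunit 36 of 36 genes had a positive log2 fold change, 20 did not overlap, and the median was 0.44 with a range from 0.19 to 1.15. In the small subunit 20 of 21 genes were positive, 13 did not overlap, and the median was 0.42 with a range from -0.01 to 0.97. The exception was RPS25, a small subunit protein needed for translation from some viral entry sites, which is named because its values were seen. Its level was 46.1, 55.6 and 81.9 FPKM in LW63, LW70 and LW119 and 61.9, 60.0 and 57.6 FPKM in LW82, LW88 and LW90. The lowest and the highest of these 6 values were both from S-H pigs (log2 fold change -0.01 ± 0.26 SE), and 92.1% of its FPKM came from transcripts assembled by the authors from the reads.

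**Figure D2:**
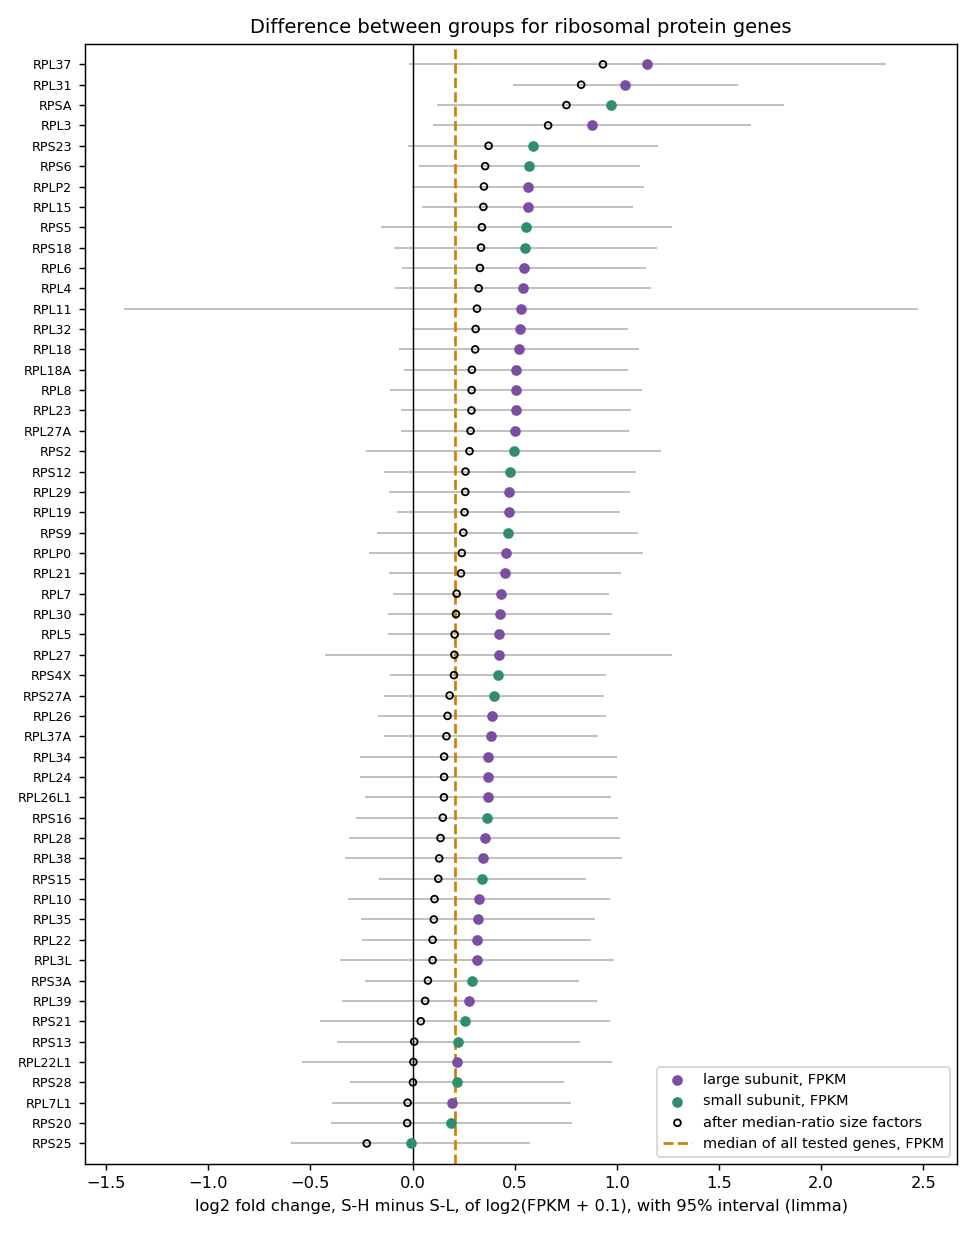
Log2 fold change (S-H minus S-L, log2(FPKM + 0.1)) of 54 of the 57 genes, each with its 95% limma interval, coloured by subunit, beside the value after median-ratio size factors (open circles) and the median of all tested genes on the FPKM scale (dashed line). All but RPS25 lie to the right of 0, most intervals include 0, and the open circles sit to the left of the filled ones.

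RPL31, a large subunit protein at the edge of the tunnel through which the new peptide leaves, had the clearest separation of the groups. Its level was 195, 148 and 131 FPKM in LW63, LW70 and LW119 and 74.4, 82.6 and 70.3 FPKM in LW82, LW88 and LW90. The lowest S-H pig was 1.58 times the highest S-L pig, the largest such gap of any member, and the log2 fold change was 1.04 ± 0.25 SE (adjusted p = 0.462, limma). The gene lies at 3:53281339-53491733, and 88.0% of its FPKM came from assembled transcripts. One assembled transcript alone, TCONS_00176941, gave 126.7 FPKM in LW63, 18.5 FPKM in LW70, 4.07 FPKM in LW88 and nothing in the remaining 3 pigs. RPL31 did not pass with Ensembl transcripts only, where its log2 fold change was 0.65, with its highest transcript alone (0.27), or without LW63 (0.88) or LW90 (0.99). It did not pass after median-ratio size factors (0.83), quantile normalization (0.86) or in TPM without the structural RNAs (0.92), where TPM is FPKM rescaled to the same total in each library.

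RPSA, a small subunit protein that is also known as the laminin receptor, had 280, 291 and 447 FPKM in the S-H pigs and 96.5, 267 and 188 FPKM in the S-L pigs, in the order of pigs used above. No S-H pig fell below an S-L pig, but LW88 came close to LW63 and LW82 stood far below the rest. The log2 fold change was 0.97 ± 0.38 SE (adjusted p = 0.587, limma), and it was 1.30 without LW88, where the gene passed the thresholds, and 0.57 without LW82.

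RPL3, which lies near the peptidyl transferase centre, had 234, 172 and 367 FPKM in S-H and 122, 194 and 101 FPKM in S-L. LW70 was below LW88, so the groups overlapped, and the log2 fold change was 0.88 ± 0.35 SE (adjusted p = 0.587, limma). RPL37, a small zinc-binding protein of the large subunit, had the highest fitted value of the family and is named because that value was seen. Its level was 122, 320 and 626 FPKM in S-H and 201, 109 and 103 FPKM in S-L. LW82 exceeded LW63, and the log2 fold change of 1.15 had a standard error of 0.52 (adjusted p = 0.610, limma). Without LW63 it was 1.77, and RPL37 then passed the thresholds, while without LW119 it was 0.60.

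Other members among those with the highest fold changes and no overlap included RPS6 (1.49-fold), RPL15 (1.48-fold) and RPL32 (1.44-fold). RPS6, the small subunit protein phosphorylated by S6 kinase downstream of mTOR, had 172, 199 and 226 FPKM in S-H and 127, 151 and 123 FPKM in S-L, with a log2 fold change of 0.57 ± 0.24 SE. RPL15, of the large subunit, had 142, 155 and 173 FPKM in S-H and 100.2, 118 and 100.1 FPKM in S-L, with a log2 fold change of 0.56 ± 0.23 SE. LW119 had the highest level of RPS6 and RPL15 and LW88 the highest of the S-L pigs, and the adjusted p was 0.608 for RPS6 and 0.601 for RPL15 (limma).

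RPLP2, an acidic protein of the P-stalk, had 634, 650 and 669 FPKM in the S-H pigs, which is the narrow spread of 651 ± 17.8 (SD, n = 3), against 440 ± 31.7 (SD, n = 3) in the S-L pigs. RPS23, which sits at the decoding centre, had 811, 689 and 887 FPKM in S-H and 585, 552 and 451 FPKM in S-L. For both genes the groups were apart, with log2 fold changes of 0.57 ± 0.25 SE (RPLP2) and 0.59 ± 0.27 SE (RPS23). RPS18 had 799, 814 and 1113 FPKM in S-H and 559, 729 and 564 FPKM in S-L (log2 fold change 0.55 ± 0.29 SE). RPL32, among the lowest members, had 44.1, 53.3 and 66.6 FPKM in S-H and 38.8, 36.9 and 36.6 FPKM in S-L (log2 fold change 0.53 ± 0.24 SE). The adjusted p was 0.608 for RPLP2 and RPL32, 0.616 for RPS23 and 0.623 for RPS18 (limma).

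Several of the most abundant members did not overlap either. RPL10 did not overlap between the groups (1550 ± 136 against 1237 ± 84.9 FPKM, SD, n = 3 each), with a log2 fold change of 0.32 ± 0.29 SE. RPS16 (1001 ± 202 against 769 ± 59.7 FPKM) and RPL34 (1023 ± 171 against 784 ± 34.2 FPKM) also did not overlap. In RPS21, RPLP0, RPL38, RPL39 and RPL24 at least 1 S-L pig reached the lowest S-H pig. RPLP0 had 979, 1058 and 1371 FPKM in S-H and 688, 996 and 801 FPKM in S-L, so that LW88 passed LW63, and its log2 fold change was 0.46 ± 0.30 SE. RPS28, the small subunit gene with the smallest spread (coefficient of variation 11.6%), had 158, 172 and 182 FPKM in S-H and 140, 135 and 167 FPKM in S-L and overlapped, with a log2 fold change of 0.22 ± 0.23 SE.

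The pigs differed within the groups as well as between them. LW119 had the highest value of the 6 pigs in 47 of 57 genes, against 31.3% of all tested genes, and LW70, LW63 and LW88 in 5, 3 and 2. The lowest value was in LW82 for 28 genes, in LW90 for 21, in LW88 for 5, in LW63 for 2 and in LW70 for 1. LW119 was above every S-L pig in 53 genes, LW70 in 47 and LW63 in 37. LW63 was the lowest S-H pig in 43 genes and LW88 the highest S-L pig in 40, so the 24 overlaps came mostly from this pair: LW88 was above LW63 in 16 of them.

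The sums showed the same order. Summed over the large subunit genes, the level was 12252, 13407 and 15526 FPKM in LW63, LW70 and LW119 and 9580 (LW82), 10619 (LW88) and 9802 (LW90) FPKM in S-L. Over the small subunit genes it was 8563, 9638 and 11958 FPKM in the S-H pigs and 6765, 8130 and 7346 FPKM in the S-L pigs. Both sums were apart between the groups, 13728 ± 1661 against 10000 ± 547 FPKM (SD, n = 3) for the large and 10053 ± 1735 against 7413 ± 685 FPKM for the small subunit, and the sum of both was 1.37-fold higher in S-H. The ratio of large to small was 1.37 ± 0.068 in S-H and 1.35 ± 0.057 in S-L and overlapped. The members took 9.56% ± 1.53 of the FPKM of all tested genes in S-H and 7.62% ± 0.121 in S-L, with LW119 at 11.3%. The sums and their ratio cover the members only, which include 32 of 47 canonical large and 21 of 33 canonical small subunit proteins. RPLP1, a large subunit protein that is left out, had 3292 to 4163 FPKM, so the ratio depends on which genes carry a symbol. No test was made on these sums.

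How far the groups stood apart depended on the scaling between libraries, for which no step is stated for the deposited values. Median-ratio size factors divide each library by its median ratio to the average library over the tested genes. This division brought the median of all tested genes from 0.21 to 0.00 and that of the ribosomal protein genes from 0.43 to 0.22, a distance of 0.22 on the first scale and 0.21 on the second. On the scaled values 54 of 57 members were positive against 50.5% of tested genes, and 5 did not overlap, 8.77% of the members against 6.22% of tested genes. Those 5 were RPL31, RPS23, RPLP2, RPL23 and RPL15. Among the 1100 tested genes with the highest means, 2.73% did not overlap with S-H higher on the scaled values, and the median was -0.04. No member passed the thresholds after this scaling (1.09% of tested genes), and 1 member had an unadjusted p below 0.05 (limma), against 6.75% of tested genes. The negative members were then RPS25 (-0.22), RPS20 (-0.03), which is named because this value was seen, and RPL7L1 (-0.02).

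Per pig, the median log2 deviation of the members from their own 6-pig means, less that of all tested genes, was -0.14 in LW63, 0.21 in LW70, 0.26 in LW119, -0.33 in LW82, -0.04 in LW88 and 0.03 in LW90. The members thus stood above the other genes in 2 of the 3 S-H pigs and below them most in LW82, while LW63 and LW90 went the other way from their groups. After size factors LW119 remained the highest pig in 26 members, against 18.9% of tested genes, and the sum over both subunits overlapped, 22079 ± 3218 in S-H and 18857 ± 2567 in S-L (scaled FPKM, SD, n = 3). Without LW82 the median of the members was 0.12 above that of all tested genes, and without LW63 it was 0.37 above. LW119 and LW82 were also the libraries with the lowest and the highest share of the structural RNAs named above, and the part this plays was not tested. In TPM without those RNAs, 24 members did not overlap, against 6.72% of tested genes, and the medians were 0.31 for the members and 0.10 for all tested genes.

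**Figure D3:**
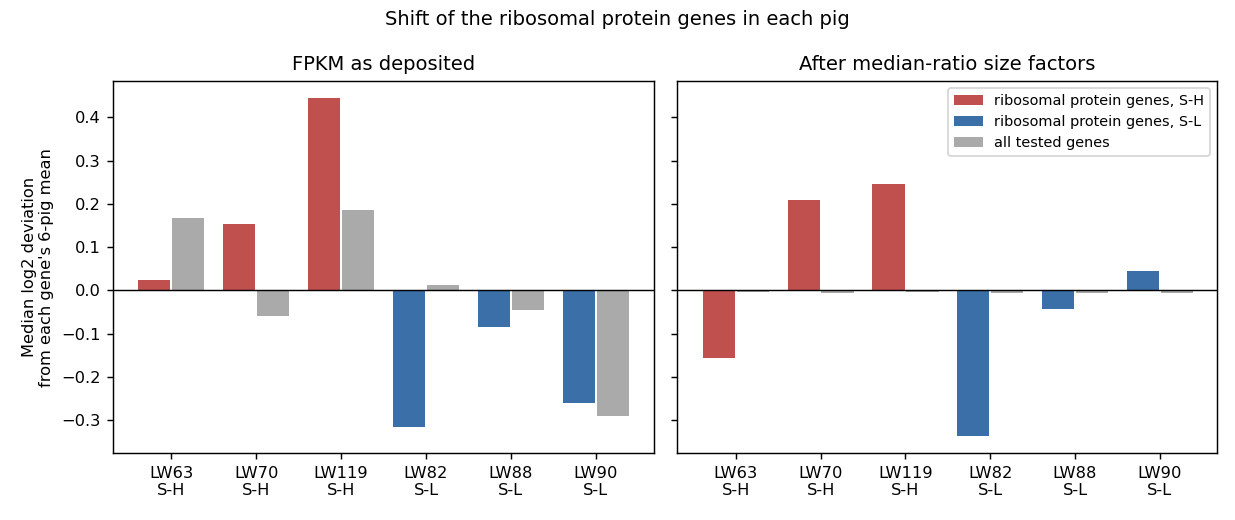
Median log2 deviation of the 57 ribosomal protein genes (coloured by group) and of all 11003 tested genes (grey) from each gene's mean over the 6 pigs, on the FPKM scale (left) and after median-ratio size factors (right). LW119 has the highest and LW82 the lowest bar of the ribosomal protein genes in both panels, and after size factors LW63 lies below 0 and LW90 just above it.

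Of the paralogues, RPL3L was the abundant one. Its level was 179.8, 323 and 183 FPKM in LW63, LW70 and LW119 and 146, 186 and 203 FPKM in LW82, LW88 and LW90. LW70 stood above the other pigs, the groups overlapped, and the log2 fold change was 0.31 ± 0.30 SE (adjusted p = 0.770, limma). It was 0.04 without LW70 and 0.18 without LW82. RPL3L and RPL3 together are the pool from which this position of the large subunit is filled, and RPL3L made up 43.4%, 65.2% and 33.2% of their summed FPKM in the S-H pigs and 54.5%, 49.0% and 66.8% in the S-L pigs. The share was 47.3% ± 16.3 in S-H and 56.8% ± 9.11 in S-L (SD, n = 3), a difference of -9.50 percentage points within the spread (exact two-sided permutation test, p = 0.40, adjusted p = 0.625 over 5 pairs, where 0.10 is the smallest p that 3 against 3 allow).

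The other paralogues were minor. RPL7L1 had 15.2 to 26.4 FPKM against 175 to 280 FPKM of RPL7, and its share of the pair was 8.07% ± 1.01 in S-H and 9.49% ± 2.04 in S-L (exact p = 0.30). RPL22L1 had at most 49.6 FPKM against 249 to 391 FPKM of RPL22, with a share of 8.62% ± 2.29 and 9.10% ± 2.03 (exact p = 0.50). RPL26L1 had 14.1 to 26.6 FPKM against 333 to 494 FPKM of RPL26, with a share of 5.14% ± 0.606 and 5.37% ± 1.85 (exact p = 0.90). The shares of RPL22L1 and RPL26L1 turned direction when single pigs were left out, and that of RPL22L1 also with Ensembl transcripts only (0.70 percentage points). For comparison, EEF1A2, the elongation factor form of mature muscle, made up 34.2% ± 8.45 of its pair with EEF1A1 in S-H and 39.6% ± 5.27 in S-L (exact p = 0.40). All 5 pairs overlapped between the groups, and reads that fit both genes of a pair could have been split between them.

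**Figure D4:**
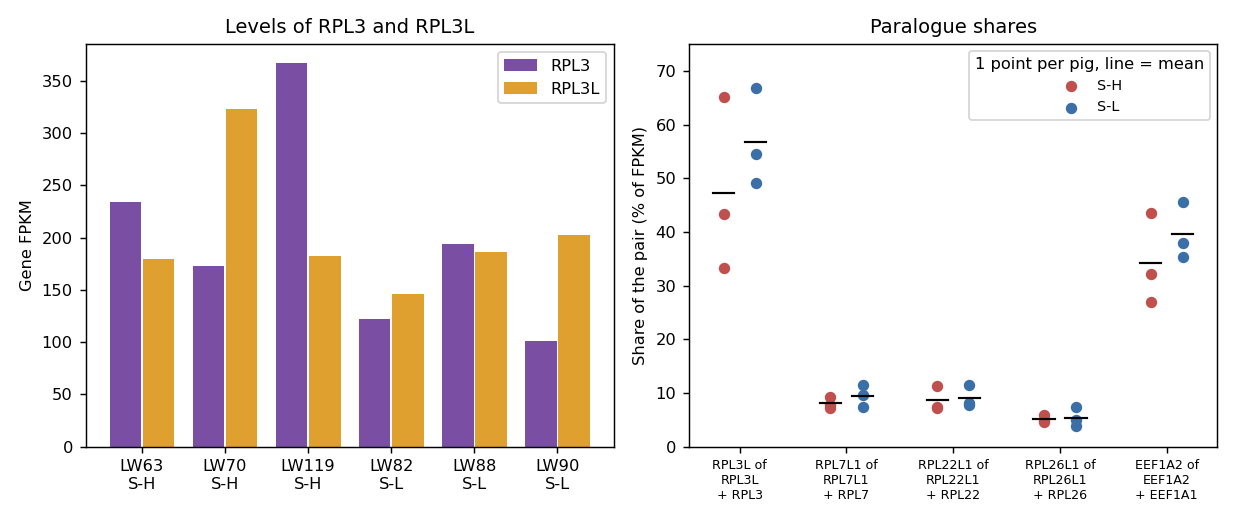
Levels of RPL3 and its muscle paralogue RPL3L in each pig (left, gene FPKM) and the share of the paralogue in the summed FPKM of each of 5 pairs (right, 1 point per pig, black line at the group mean). RPL3L exceeds RPL3 in LW70, LW82 and LW90, and the shares of the groups overlap in every pair.

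The gene level is a sum over transcripts, and for some members the transcript that carried it was not the same in every pig. In 45 members the same transcript led in all 6 pigs. These 45 genes had a median log2 fold change of 0.43 (0.21 for all tested genes). All were positive (73.8% of tested genes), and 27 did not overlap (13.1% of tested genes, with S-H higher). In the other 12 the leading transcript varied, 11 were positive and 6 did not overlap, to be set against the same shares of tested genes. Of the 57 members, 20 had at least 1 assembled transcript, 8 had most of their FPKM in such transcripts, and 14.3% of the members' summed FPKM came from them.

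RPL11, a large subunit protein that binds MDM2 when ribosome assembly is disturbed, had the largest spread of all members, with 447, 45.0 and 48.7 FPKM in LW63, LW70 and LW119 and 29.4, 57.6 and 192 FPKM in LW82, LW88 and LW90. LW63 and LW90 stood far above the other pigs of either group. In those libraries RPL11-202 gave 97.5% and 57.0% of the gene's FPKM, and the remaining 4 pigs had it at 0. The log2 fold change of 0.53 ± 0.87 SE turned to -0.55 without LW63, to -0.08 without LW82 and to -0.43 with Ensembl transcripts only. For RPL37, RPL37-202 gave 68.6%, 91.0% and 62.5% of the level in LW70, LW119 and LW82, the pigs with the highest levels, and at most 0.045% in the others.

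In RPL38, the leading assembled transcript differed between pigs, while the coefficient of variation of the gene's sum was near the median of the members. TCONS_00055178 gave 97.4%, 66.9% and 66.0% of the FPKM in LW70, LW82 and LW90 and was at 0 in the other 3 pigs. In those pigs TCONS_00055177 led with 54.9% to 68.2%, and TCONS_00055176 gave 31.4% to 45.0%. TCONS_00055177 also gave 32.8% in LW82 and 33.8% in LW90, but 2.41% in LW70. The sum was 600, 1020 and 948 FPKM in S-H and 638, 619 and 714 FPKM in S-L, and LW63 was the lowest of the 6 pigs. In RPSA, RPSA-201 carried 79.2% to 87.8% of the level in 5 pigs and was listed at 0 in LW82, the pig with the lowest RPSA level. The part that the assignment of reads to transcripts plays in these gene levels was not tested.

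**Figure D5:**
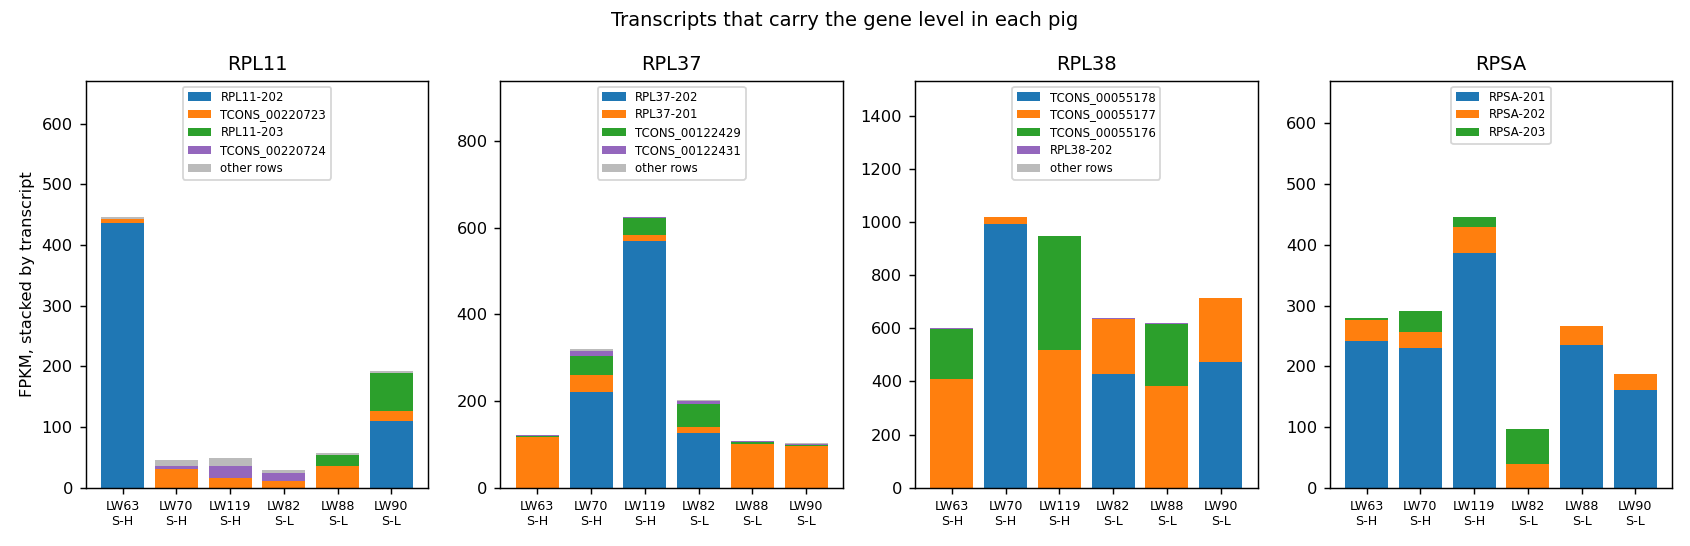
FPKM of RPL11, RPL37, RPL38 and RPSA in each pig, stacked by transcript, where names with a gene symbol are Ensembl transcripts and names starting TCONS are transcripts assembled by the authors. RPL11-202 is seen in LW63 and LW90, RPL37-202 in LW70, LW119 and LW82, and RPSA-201 is missing in LW82.

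On the FPKM scale, ribosomal proteins outside the naming rule had values of the same kind. Of 80 canonical cytosolic ribosomal proteins 53 were members, and the other 4 members were the paralogues. RACK1, the scaffold protein of the small subunit, had 528, 507 and 691 FPKM in S-H and 333, 411 and 337 FPKM in S-L, without overlap (log2 fold change 0.67 ± 0.27 SE, adjusted p = 0.594, limma). RPL36AL, a close copy of RPL36A, had 41.4, 34.1 and 36.5 FPKM in S-H and 22.2, 30.3 and 21.5 FPKM in S-L (log2 fold change 0.61 ± 0.24 SE). A further 11 ribosomal protein genes are listed without their symbol and were named by gene ID from RefSeq. Of these, 10 had a positive log2 fold change (73.8% of tested genes), 7 did not overlap (13.1%) and 10 were highest in LW119 (31.3%). None passed the thresholds (limma, 1.35% of tested genes), 1 had an unadjusted p below 0.05 (8.16%), and the median was 0.39. Values after size factors are not given for these 11 genes. The P-stalk protein RPLP1 had 3546, 4024 and 4163 FPKM in S-H and 3292, 4013 and 3313 FPKM in S-L, above every member, and the groups overlapped.

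The wider translation genes were compared through lists. Of 15 tested translation factors and other genes with a TOP tract, 15 had a positive log2 fold change (73.8% of tested genes), 8 did not overlap (13.1% of tested genes), none passed the thresholds (limma; 2 had an unadjusted p below 0.05) and the median was 0.35, or 0.13 after size factors. After size factors NAP1L1 (-0.04), EIF3H (-0.003), EIF4A2 (-0.10) and HNRNPA1 (-0.14) were negative. EEF1A1, the factor that brings aminoacyl-tRNA to the ribosome, had 1634, 1208 and 1522 FPKM in S-H and 816, 1127 and 785 FPKM in S-L, with a log2 fold change of 0.69 ± 0.31 SE. EEF2, which moves the ribosome along the mRNA, had 741, 636 and 576 FPKM in S-H and 409, 502 and 440 FPKM in S-L, with a log2 fold change of 0.53 ± 0.27 SE. LW63 had the highest level of both factors, and the groups did not overlap.

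The median of the ribosome biogenesis factors lay a little below that of all tested genes. Of 41 tested, 30 had a positive log2 fold change, near the 73.8% of all tested genes. With S-H higher, 2 did not overlap (FBL and NOP14), against 13.1% of tested genes. The median was 0.14 (0.21 for all tested genes), or -0.07 after size factors (0.00 for all tested genes). FBL, the methyltransferase of the nucleolus, had 7.93, 7.77 and 11.5 FPKM in S-H and 6.14, 7.77 and 6.28 FPKM in S-L, so that LW70 and LW88 were almost level. Of 18 genes that control TOP translation, among them MTOR, LARP1 and EIF4EBP1, 10 were positive (73.8% of tested genes). None was apart between the groups, where 13.1% of tested genes were apart with S-H higher and 1.61% with S-H lower. The median was 0.04, or -0.18 after size factors. No gene of the biogenesis list or the TOP control list passed the thresholds (1.35% of tested genes) or had an unadjusted p below 0.05 (limma, 8.16% of tested genes).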

How the data were processed

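LD muscle RNA of 3 S-H and 3 S-L pigs was sequenced, 1 library per pig. As the study's methods describe, the authors made strand-specific libraries after removal of ribosomal RNA, aligned reads to the pig genome (HISAT2), and used StringTie for transcript assembly and quantification. The deposited values are FPKM per transcript and pig, except that Ensembl transcripts without a symbol are held to be in TPM. This was inferred from column sums, and a factor per pig was set so that all rows come to 1000000 TPM. The Ensembl transcripts without a symbol were converted to FPKM with this factor. The TPM settings and the values of genes named by ID can depend on this inference. Members all carry a symbol, so their values are as deposited. The files used here hold no read counts, so depth per value is unknown and the study's edgeR test could not be repeated.

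Rows sharing a gene ID were summed. Genes that RefSeq lists as protein-coding by symbol, plus the members, entered the test if their 6-pig mean reached 0.1 FPKM. Values of log2(FPKM + 0.1) were fitted by limma 3.58.1 (R 4.3.3), with a variance trend and no covariate, S-H against S-L, two-sided. A fold change on this scale understates the change of low genes. The study's thresholds were used (unadjusted p below 0.01, absolute log2 fold change 1 or more), with Benjamini-Hochberg adjusted p over all 11003 genes. Paralogue shares were compared by exact permutation over pigs. Tables were made in Python 3.11.15 (pandas 2.3.3, numpy 2.4.6, scipy 1.17.1). The limma step was tested on simulated data.

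The genes named were the 10 highest and 5 lowest members, those past the thresholds, the 10 with the largest changes without overlap, paralogue pairs, the extremes of spread in each subunit, and canonical genes outside the rule; others are marked as named after their values were seen. The members and lists were chosen with earlier results of these data known. Alternatives were other pseudocounts, minimums, scalings, limma settings, gene sets and transcript choices, and each pig left out. TPM without 3 structural RNA families and leaving out members with a varying leading transcript were chosen after seeing the data. Some of the genes this rule names are not reported here by name, and 3 members are not drawn in the gene plots; all counts, medians and sums include every member. No sequences were printed, since none were in the sources used here.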

Additional observations from a re-analysis of the deposited data

How the results depend on the processing

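The median of the ribosomal protein genes stayed above that of all tested genes in all 19 other settings, by 0.12 to 0.37 when 1 pig was left out and by 0.21 to 0.29 otherwise, against 0.22. The cause of each change below was not tested. Members past the thresholds numbered 0 with size factors, quantile normalization, Ensembl transcripts only, the highest transcript and TPM without structural RNAs, and 0 to 2 with 1 pig left out. All tested genes past the thresholds numbered 149, 70 with a pseudocount of 1, 220 in TPM and 76 (without LW90) to 225 (without LW70) and 228 (without LW82) with 1 pig left out. Members without overlap numbered 5 with size factors (6.22% of tested genes), 14 with quantile normalization and 33 to 46 with 1 pig left out. Leaving out a pig can only keep or raise this count, so that range does not show stability. No share of all tested genes is given for quantile normalization or the pigs left out. The median log2 fold change of all members was 0.216 with size factors, 0.232 with quantile normalization and 0.336 to 0.544 with 1 pig left out. The log2 ratio of the large subunit sums was 0.457, 0.237 with size factors, 0.612 in TPM and 0.359 to 0.533 with 1 pig left out; that of the small subunit was 0.439, 0.215 with size factors and 0.296 to 0.543. The large to small ratio was 1.07 with Ensembl transcripts only, 1.22 with the highest transcript, 1.09 without members whose leading transcript varied and 1.35 to 1.38 with 1 pig left out. The RPL22L1 share difference was 0.701 (Ensembl only), 0.722 (highest transcript) and -1.80 to 0.687 with 1 pig left out, and that of RPL26L1 -1.02 to 0.788. With 1 pig left out those of RPL3L, RPL7L1 and EEF1A2 were -18.5 to -2.48, -2.45 to -0.405 and -10.0 to -1.78.

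Log2 fold changes turned direction for RPL7L1 (-0.0245) and RPS20 (-0.0265) with size factors, RPS28 (-0.0258) with quantile normalization, RPL38 (-0.114) and RPL11 (-0.43) with Ensembl transcripts only, and RPL38 (-3.66) and RPL10 (-1.71) with the highest transcript. RPS25 turned to 0.126 (TPM), 3.01 (Ensembl only) and 0.437 (highest transcript). With 1 pig left out RPL11 ran from -0.553 to 1.27, RPL22L1 from -0.135 to 0.456 and RPS25 from -0.239 to 0.174. No paired analysis was possible because the groups hold different pigs with no shared number. Without read counts, no limit from depth can be given for single values. Intervals with 3 pigs a group were wide, and the standard error of most members was near 0.25 on the log2 scale. That error includes the variance trend of limma over all tested genes, so it can differ from what a gene's own spread gives.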

Other observations

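RPS19, a small subunit gene, had no row under its own symbol, and its locus appeared under the name of its neighbour CD79A, a B cell receptor gene. At least 99.3% of the level listed for CD79A in each pig came from 1 assembled transcript at 6:50000219-50010059, which covers 98.9% of the RefSeq locus of RPS19 (6:50003198-50010135). CD79A itself lies at 6:49996116-49999294. The other transcripts listed for CD79A reached at most 0.670 FPKM together in any pig. Among them ENSSSCT00000076652 runs from 49995764 to 50010059 and so reaches into the RPS19 locus. The level listed for CD79A was 128.7 ± 14.5 FPKM in S-H and 92.4 ± 6.41 FPKM in S-L (SD, n = 3), 1.39-fold and without overlap, and no test is given because the locus was looked up after its value was seen. Lymphocyte markers without CD79A summed to 3.86 to 9.21 FPKM in S-H and 3.91 to 6.22 FPKM in S-L.

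RPS15A, named by its gene ID, was the only one of the 11 such genes with a negative log2 fold change (-0.20 ± 0.43 SE). Its level was 64.5, 123 and 243 FPKM in LW63, LW70 and LW119 and 178, 150 and 111 FPKM in LW82, LW88 and LW90, so that the lowest and the highest pig were both S-H.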
